A study of Arabidopsis thaliana with 12 samples.

Results

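The leaf transcriptome of a line that carries an extra, GFP-tagged copy of TPR1 was compared with that of its wild type, gene by gene. TPR1-GFP plants hold the pTPR1:TPR1-GFP transgene, in which TPR1's own promoter drives a fusion of TPR1 to green fluorescent protein, in the Col-0 accession, and Col-0 is the untransformed wild type. All plants were untreated, grew on soil with 10 h of light a day at 22 °C and 60% humidity, and gave polyadenylated RNA from leaves at 5 weeks. The comparison holds 3 TPR1-GFP and 3 Col-0 libraries, 6 of the 12 in the study, which also has TPR1-GFP in the sid2-1 and eds1-2 mutants. The deposited counts cover 18884 genes, of which 18877 were tested, and all of these are members of the comparison. Salicylic acid and photosynthesis are left aside here, and the functions beyond them are described through 91 lists of genes taken from the symbol and description columns of the table. The labels do not say whether the line is a single transformant. They speak of 3 independent experiments without saying which library came from which, and the p-values here therefore rest on the spread among libraries alone.

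TPR1 belongs to the TOPLESS family of corepressors. These proteins do not read DNA sequence themselves but are recruited by transcription factors that carry a short repression motif, among them the Aux/IAA proteins of auxin signalling and, through adaptors, the jasmonate repressors, and they bring histone deacetylases to the bound genes. In leaves TPR1 is known for its tie to TIR-type immune receptors, and plants with excess TPR1 are known for active immunity and reduced growth.

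TPR1 had 1539, 1748 and 1617 CPM in TPR1-GFP libraries, against 74.1, 73.5 and 68.3 CPM in Col-0 libraries. The lowest TPR1-GFP library stood far above the highest Col-0 library (log2 change 4.51, SE 0.20, adjusted p = 2.39e-07). The count pools the native gene with the transgene, so the share of each is unknown. Across the transcriptome 5192 genes were called higher in TPR1-GFP and 4979 lower, which is 27.5% and 26.4% of the genes tested (edgeR quasi-likelihood test, Benjamini-Hochberg adjusted p under 0.05). These shares are the background for every list below, and the median log2 change of all genes was 0.01. All 3 TPR1-GFP libraries lay above all 3 Col-0 libraries for 31.1% of genes tested, and below them for 30%. Genes named below were marked in a list or picked for large changes, so that their groups lie apart is in part set by that choice. A change of at least 1 log2 unit was called for 2259 genes higher and 1905 lower, 12% and 10.1% of those tested. Levels are given as CPM, counts scaled to the total of their library times its TMM factor from edgeR. For replicates 1 to 3 this factor was 1.103, 1.09 and 1.079 in TPR1-GFP and 0.9344, 0.9203 and 0.8884 in Col-0. A log2 change is TPR1-GFP over Col-0.

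Total counts ran from 23281173 to 32018583 in TPR1-GFP and from 21403388 to 27854906 in Col-0. Both groups held libraries that stood apart. Among genes called higher, TPR1-GFP replicate 1 was the lowest of its 3 libraries for 3929 genes (75.7%) and Col-0 replicate 1 the highest of its own for 3139 (60.5%). Among genes called lower, TPR1-GFP replicate 1 was the highest of its group for 3566 genes (71.6%) and Col-0 replicate 3 the highest of Col-0 for 2953 (59.3%). Values without a library are therefore given wherever they move a call or move a fold by more than 1.5 times. Without any scaling beyond the library total 8349 genes were called higher and 3098 lower and the median of all genes moved by 0.25 log2 units, and where the order of a list's 2 counts or the sign of its printed median turned under that scaling, upper-quartile scaling or DESeq2's, this is given beside the list. Counts of 5 or fewer in a list's less frequent direction often changed with a single library and carry no statement. The leaf label was checked with marker genes. RBCS1A, a small subunit of Rubisco that marks mesophyll, had 8948 to 11513 CPM in TPR1-GFP and 16959 to 23574 CPM in Col-0. Of 8 mesophyll markers 5 were lower, 2 were not called and CAT2 was higher (log2 change 0.45). The call of CAT2 was lost without TPR1-GFP replicate 2, Col-0 replicate 2 or Col-0 replicate 3. The floral organ gene AG had at most 0.287 CPM in TPR1-GFP and 0.950 CPM in Col-0. Of the root markers, SCR had 27.2 to 30.3 CPM in TPR1-GFP and 21.5 to 24.6 CPM in Col-0 and was called higher. NRT2.1 had at most 1.87 CPM, and 7 other root markers were not among the deposited genes. In leaf RNA, fewer cells of a type and less RNA per cell cannot be told apart.

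**Figure D1:**
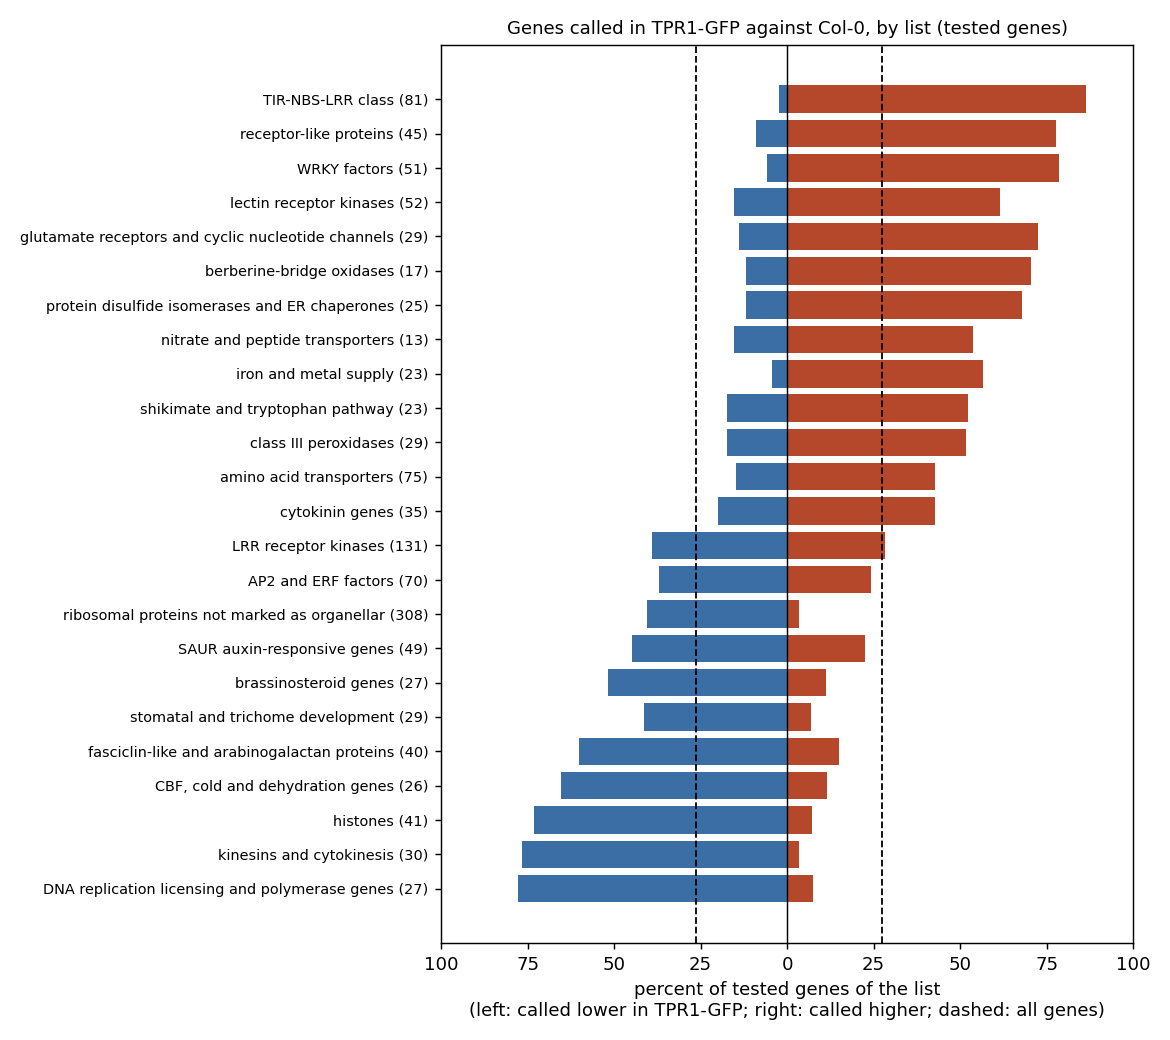
Percent of the tested genes of 24 lists called higher (right) or lower (left) in TPR1-GFP against Col-0, with the percent of all tested genes as dashed lines at 27.5 and 26.4. Most receptor lists and the ER folding and transport lists extend to the right of the line, and division, arabinogalactan and stomatal lists extend to the left. Leucine-rich repeat receptor kinases, at 28.2% higher and 38.9% lower, pass the left line.

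Genes of cell division were mostly lower in TPR1-GFP. Of 41 histone genes 3 were higher and 30 lower, with a median log2 change of −0.73. Of 27 genes of DNA replication 2 were higher and 21 lower (median −1.11), and of 30 genes for kinesins and other parts of cytokinesis 1 was higher and 23 lower (median −1.32). Cyclins and cyclin-dependent kinases had 29 lower and 2 higher of 49 (median −0.83), and tubulins and actins had 15 lower and 1 higher of 20 (median −1.11).

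The kinesin gene POK2 (AT3G19050), whose protein places the new wall at the right site of a dividing cell, had 1.69, 1.52 and 0.717 CPM in TPR1-GFP libraries, against 5.70, 6.66 and 9.46 CPM in Col-0 libraries. All 3 TPR1-GFP libraries lay below all 3 Col-0 libraries, as for 30% of all genes tested (log2 change −2.46, SE 0.55, adjusted p = 0.00304). KP1 (AT3G44730), a kinesin whose protein is known from mitochondria, had 2.48, 2.06 and 1.04 CPM in TPR1-GFP libraries, against 6.20, 4.27 and 6.91 CPM in Col-0 libraries and fell with it (log2 change −1.63, SE 0.29, adjusted p = 0.000653). Their promoters are shown because many genes of mitosis carry the letters AACGG, the core of the mitosis-specific element bound by MYB factors with 3 repeats. Each run holds the 300 bases before the gene start on the gene's strand in RefSeq TAIR10.1, and capitals mark AACGG read on either strand. POK2 lies at chr3:6577424-6577723 on the plus strand, where the window also overlaps the neighbouring locus AT3G03795, and KP1 at chr3:16283533-16283832 on the plus strand.

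POK2: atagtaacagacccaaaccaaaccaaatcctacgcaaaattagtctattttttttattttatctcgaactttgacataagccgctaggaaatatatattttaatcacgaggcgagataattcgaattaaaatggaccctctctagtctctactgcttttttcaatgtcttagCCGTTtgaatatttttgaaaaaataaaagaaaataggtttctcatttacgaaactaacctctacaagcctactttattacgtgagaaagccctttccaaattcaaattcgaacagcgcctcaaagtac
KP1: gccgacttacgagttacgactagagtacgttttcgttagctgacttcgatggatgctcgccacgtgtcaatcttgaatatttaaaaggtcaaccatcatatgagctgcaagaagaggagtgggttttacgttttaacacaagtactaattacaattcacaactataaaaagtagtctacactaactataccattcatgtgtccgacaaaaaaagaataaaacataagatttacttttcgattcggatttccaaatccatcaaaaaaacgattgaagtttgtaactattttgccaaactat

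The POK2 window held 1 copy, on the other strand and 128 bases before the start, and the KP1 window held none. AACGG occurred in 24.97% of the 18769 windows of tested genes. It occurred in 18 of 30 windows of histone genes called lower (60%), in 12 of 23 of the kinesin and cytokinesis genes called lower (52.17%) and in 12 of 29 of the cyclin and kinase genes called lower (41.38%). In the DNA replication genes called lower it occurred in 7 of 21 windows (33.33%), and in the tubulins and actins called lower in 5 of 15 (33.33%). Over the whole lists, whatever the call, the shares were 48.78% for histones, 46.67% for kinesins and cytokinesis, 36.73% for cyclins and kinases, 25.93% for DNA replication and 45% for tubulins and actins. Copies of different motifs were counted separately even where they share letters, and a match is a description of the window only.

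The histone H2A gene HTA6 had 20.4, 16.4 and 8.28 CPM in TPR1-GFP libraries, against 52.3, 51.1 and 66.2 CPM in Col-0 libraries, and AT3G46320, annotated as a histone superfamily gene, had 6.04, 5.24 and 2.59 CPM in TPR1-GFP libraries, against 14.6, 17.99 and 24.1 CPM in Col-0 libraries. In both, TPR1-GFP replicate 3 was the lowest library and the groups did not overlap (log2 change −1.91, SE 0.32, adjusted p = 0.00053 for HTA6; log2 change −2.02, SE 0.34, adjusted p = 0.000526 for AT3G46320). RAT5, another histone H2A gene, went the other way with 23.9, 31.3 and 33.6 CPM in TPR1-GFP libraries, against 17.6, 21.4 and 18.1 CPM in Col-0 libraries (log2 change 0.64, SE 0.14, adjusted p = 0.0021). Near-identical copies within the histone family can exchange reads, so single members are less certain than the count of the list. TSO2, a small subunit of ribonucleotide reductase that supplies the building blocks of DNA, had 20.4, 13.4 and 9.08 CPM in TPR1-GFP libraries, against 36.1, 47.9 and 59.3 CPM in Col-0 libraries (log2 change −1.74, SE 0.32, adjusted p = 0.000861). Its paralog RNR2A had 43.3, 45.4 and 42.1 CPM in TPR1-GFP libraries, against 25.6, 19.7 and 26.9 CPM in Col-0 libraries (log2 change 0.86, SE 0.11, adjusted p = 7.96e-05), so the 2 small subunits changed in opposite directions. MCM6, part of the helicase that opens replication origins, fell by 1.68 log2 units (SE 0.34).

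CYCD1;1, a D-type cyclin that carries growth signals into the cell cycle, had 11.5, 5.50 and 6.41 CPM in TPR1-GFP libraries, against 23.2, 32.3 and 32.6 CPM in Col-0 libraries (log2 change −1.91, SE 0.31, adjusted p = 0.000391). CDKB2;1, a kinase of mitotic entry, had 1.58, 1.55 and 1.11 CPM in TPR1-GFP libraries, against 4.60, 4.87 and 7.48 CPM in Col-0 libraries (log2 change −1.99, SE 0.31, adjusted p = 0.000248). ICK1, an inhibitor of cyclin-dependent kinases, was among the 2 members that rose, with 32.95, 34.6 and 36.6 CPM in TPR1-GFP libraries, against 17.2, 16.5 and 15.6 CPM in Col-0 libraries (log2 change 1.08, SE 0.13, adjusted p = 4.85e-05). Every TPR1-GFP library of ICK1 lay above every Col-0 library, and for both kinase and cyclin the reverse held. The beta-tubulin genes TUB7 and TUB8 fell (log2 changes −1.73 and −1.40), and alpha-tubulin gene TUA1 was the single member of its list that rose (log2 change 0.55).

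**Figure D2:**
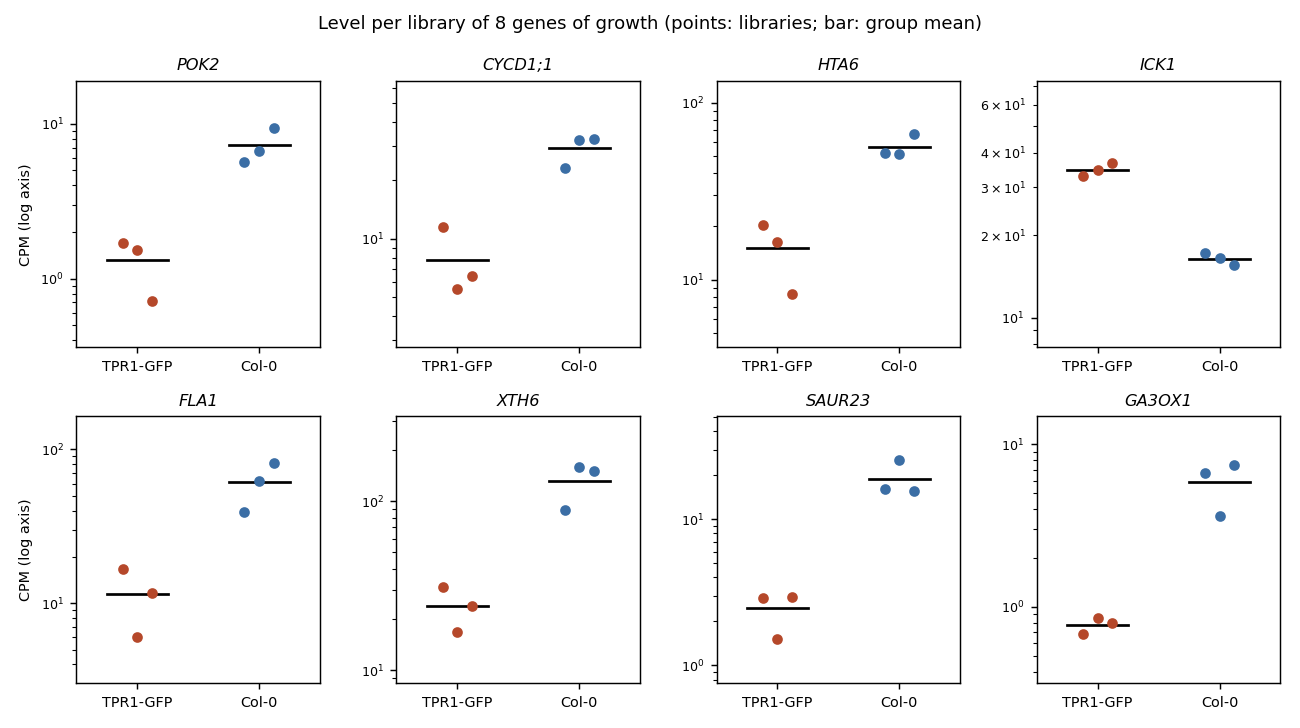
CPM of 8 genes of growth in each library on log axes, with TPR1-GFP left and Col-0 right, a point per library and a bar at the group mean. In the panels of POK2, CYCD1;1, HTA6, FLA1, XTH6, SAUR23 and GA3OX1 all TPR1-GFP points lie below all Col-0 points, and in the panel of ICK1 they lie above.

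Genes of translation were lower as well, by smaller amounts. Among 308 ribosomal protein genes whose descriptions do not mark them as organellar 125 were lower and 11 higher, with a median log2 change of −0.40. The count depends on single libraries: it was 67 without TPR1-GFP replicate 2, 63 without TPR1-GFP replicate 3 and 58 without Col-0 replicate 3. It also depends on scaling: with the library total alone 54 were lower and 29 higher (median −0.14). The list still holds plastid members, and both genes named from it here are of the plastid. PRPL35, a plastid ribosomal protein by its name, had 117, 80.1 and 88.5 CPM in TPR1-GFP libraries, against 229.9, 243 and 315 CPM in Col-0 libraries, with no overlap of the groups (log2 change −1.46, SE 0.18, adjusted p = 6.24e-05). RPL14, here the plastid-encoded gene ATCG00780, had 195, 109 and 131 CPM in TPR1-GFP libraries, against 425, 317 and 477 CPM in Col-0 libraries (log2 change −1.48, SE 0.24, adjusted p = 0.000348). Plastid transcripts reach a polyadenylated library only in part, so their level is less certain. Of 40 aminoacyl-tRNA synthetase genes 2 were higher and 24 lower (median −0.38), led by OVA2, a class I synthetase, with 97.4, 74.3 and 74.4 CPM in TPR1-GFP libraries, against 171, 183 and 218 CPM in Col-0 libraries (log2 change −1.22, SE 0.15, adjusted p = 5.18e-05). With the library total alone 8 of the synthetase genes were higher and 10 lower. The synthetase list was not split by compartment, so its counts do not tell cytosolic from organellar translation.

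The wall of the growing cell followed in part. Arabinogalactan proteins, glycoproteins of the cell surface, and their fasciclin-like relatives had 24 of 40 genes lower and 6 higher (median −1.03). FLA1 had 16.7, 6.07 and 11.7 CPM in TPR1-GFP libraries, against 39.5, 62.4 and 81.9 CPM in Col-0 libraries (log2 change −2.42, SE 0.47, adjusted p = 0.00131), and AGP7 had 0.719, 0.258 and 0.318 CPM in TPR1-GFP libraries, against 5.50, 7.80 and 5.46 CPM in Col-0 libraries (log2 change −3.86, SE 0.39, adjusted p = 2.01e-05). AGP5 rose in the same list, with 42.6, 74.7 and 82.1 CPM in TPR1-GFP libraries, against 10.05, 3.88 and 6.99 CPM in Col-0 libraries (log2 change 3.25, SE 0.34, adjusted p = 2.99e-05). For all 3 genes the groups did not overlap. Of 45 pectin lyase-like genes 5 were higher and 18 lower (median −0.48), and of 35 genes for pectin methylesterases and their inhibitors 8 were higher and 12 lower (median −0.31). Without scaling beyond the library total the order of the last list turned to 13 higher and 9 lower. AT3G09540, a pectin lyase-like gene, had a log2 change of −1.80, whereas AT4G24780 of the same family had 0.83.

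Wall-loosening families split. Of 18 expansin genes 2 were higher and 8 lower, and their median of −0.21 turned to 0.05 without scaling beyond the library total. EXPB1 had 8.23, 4.70 and 7.05 CPM in TPR1-GFP libraries, against 26.95, 25.6 and 41.3 CPM in Col-0 libraries (log2 change −2.24, SE 0.26, adjusted p = 4.82e-05), and EXPA16 fell by 2.22 log2 units (SE 0.40). EXPA1 had 801, 536 and 839 CPM in TPR1-GFP libraries, against 307, 221 and 128 CPM in Col-0 libraries and rose (log2 change 1.73, SE 0.29, adjusted p = 0.000522). Of 19 xyloglucan endotransglucosylase genes, which cut and rejoin the hemicellulose that ties cellulose fibres, 5 were higher and 8 lower (median 0.08), or 7 each way without scaling beyond the library total. XTH6 had 31.3, 16.9 and 23.97 CPM in TPR1-GFP libraries, against 88.6, 159 and 150.3 CPM in Col-0 libraries (log2 change −2.46, SE 0.29, adjusted p = 4.88e-05), while XTH24 had 69.0, 162 and 114 CPM in TPR1-GFP libraries, against 17.95, 23.9 and 17.98 CPM in Col-0 libraries (log2 change 2.53, SE 0.37, adjusted p = 0.000205). The groups of both genes were apart, in opposite directions.

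Cellulose and callose synthase genes had 14 of 34 lower and 5 higher (median −0.57). CESA5, a subunit of the complex that makes cellulose of growing walls, had 117, 102 and 108 CPM in TPR1-GFP libraries, against 234, 199.6 and 273 CPM in Col-0 libraries (log2 change −1.11, SE 0.15, adjusted p = 8.96e-05), and CSLD5, a relative that acts in dividing cells, fell by 1.995 log2 units (SE 0.45). CALS1, a callose synthase, had 338, 436 and 487 CPM in TPR1-GFP libraries, against 91.6, 58.0 and 27.9 CPM in Col-0 libraries and rose (log2 change 2.83, SE 0.35, adjusted p = 8.02e-05). Col-0 replicate 1 was the highest Col-0 library for CALS1 and still lay below every TPR1-GFP library.

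**Figure D3:**
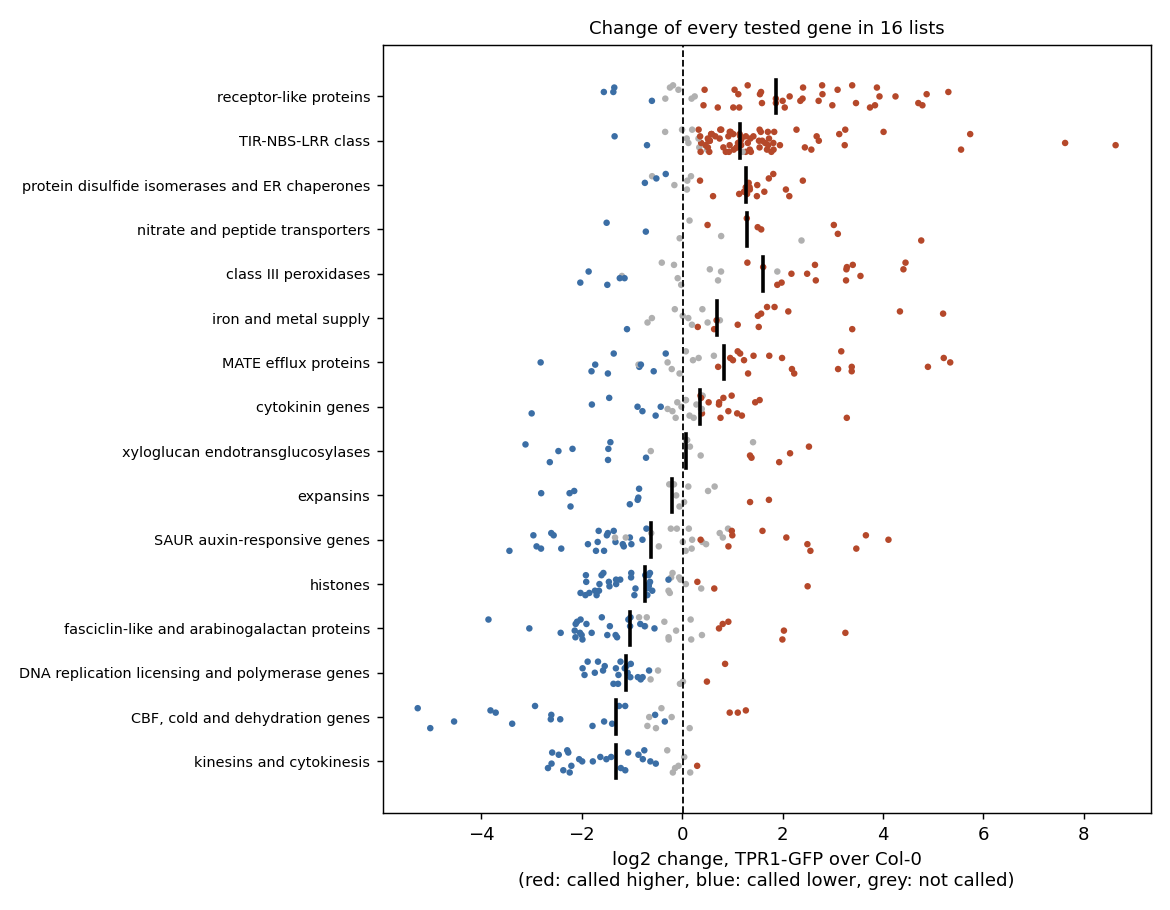
Log2 change (TPR1-GFP over Col-0) of each tested gene of 16 lists, a dot per gene with called genes in colour, a bar at the list median and a dashed line at the median of all genes. Medians run from −1.33 for cold and dehydration genes to 1.87 for receptor-like proteins, and most lists hold genes on both sides of 0.

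Hormone pathways of growth changed member by member. SAUR genes, short auxin-induced genes whose products promote cell expansion, had 22 of 49 lower and 11 higher (median −0.62). SAUR23 had 2.91, 1.52 and 2.95 CPM in TPR1-GFP libraries, against 16.1, 25.3 and 15.6 CPM in Col-0 libraries (log2 change −2.96, SE 0.28, adjusted p = 1.37e-05). Its close relatives share sequence and may share reads. AT1G75580, another SAUR gene, rose, with 6.72, 7.11 and 5.26 CPM in TPR1-GFP libraries, against 0.850, 0.398 and 0.283 CPM in Col-0 libraries (log2 change 3.66, SE 0.59, adjusted p = 0.000393). Of 38 genes of auxin transport and Aux/IAA proteins 7 were higher and 19 lower (median −0.55), among them the auxin exporter gene PIN7 with 80.3, 61.3 and 81.3 CPM in TPR1-GFP libraries, against 203, 274 and 212 CPM in Col-0 libraries (log2 change −1.63, SE 0.14, adjusted p = 6.78e-06).

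Brassinosteroid genes had 14 of 27 lower and 3 higher (median −0.37). DWF4, the rate-limiting step of brassinosteroid synthesis, had 7.04, 6.33 and 6.53 CPM in TPR1-GFP libraries, against 15.3, 14.3 and 19.4 CPM in Col-0 libraries (log2 change −1.302, SE 0.17, adjusted p = 9.5e-05). BR6OX2, the last oxidase of the route, had 7.44, 8.65 and 9.55 CPM in TPR1-GFP libraries, against 35.7, 36.8 and 29.01 CPM in Col-0 libraries (log2 change −1.98, SE 0.13, adjusted p = 2e-06), and BAS1, which inactivates the hormone, had 3.49, 2.66 and 3.94 CPM in TPR1-GFP libraries, against 12.7, 16.9 and 10.2 CPM in Col-0 libraries (log2 change −1.98, SE 0.27, adjusted p = 0.000129). Genes of synthesis and of inactivation thus were both lower. ROT3, a cytochrome P450 of the same pathway, rose to 10.03, 14.3 and 11.8 CPM in TPR1-GFP libraries, against 2.2002, 2.34 and 2.46 CPM in Col-0 libraries (log2 change 2.36, SE 0.27, adjusted p = 3.62e-05). Among 23 gibberellin genes 6 were higher and 8 lower, an order that turned to 10 higher and 8 lower when only the library total was used. GA3OX1, the last step to active gibberellin, had 0.683, 0.859 and 0.796 CPM in TPR1-GFP libraries, against 6.65, 3.63 and 7.44 CPM in Col-0 libraries (log2 change −2.91, SE 0.31, adjusted p = 2.37e-05), RGL1, a DELLA repressor of the hormone response, fell by 2.08 log2 units (SE 0.22), and the receptor gene GID1B rose by 2.13 log2 units (SE 0.28).

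Cytokinin genes leaned the other way, with 15 of 35 higher and 7 lower (median 0.37). The response regulators ARR4 and ARR5, early genes that cytokinin induces, rose by 0.53 and 0.82 log2 units, and LOG7, which releases active cytokinin, had 7.47, 6.50 and 7.48 CPM in TPR1-GFP libraries, against 3.0003, 3.88 and 3.15 CPM in Col-0 libraries (log2 change 1.10, SE 0.18, adjusted p = 0.000446). CRF6, a cytokinin response factor, had 12.3, 12.8 and 15.7 CPM in TPR1-GFP libraries, against 5.70, 6.91 and 5.29 CPM in Col-0 libraries (log2 change 1.19, SE 0.21, adjusted p = 0.000599). Of 23 genes of ethylene synthesis and signalling 8 were higher and 8 lower, and the higher count was 5 without TPR1-GFP replicate 2 and 2 without either TPR1-GFP replicate 3 or Col-0 replicate 3. The even split became 5 higher and 9 lower with upper-quartile scaling and 11 higher and 5 lower when only the library total was used. ETR2, an ethylene receptor gene, had 1.22, 1.80 and 1.11 CPM in TPR1-GFP libraries, against 2.85, 4.37 and 3.72 CPM in Col-0 libraries (log2 change −1.38, SE 0.26, adjusted p = 0.000917).

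Genes that pattern stomata and trichomes had 12 of 29 lower and 2 higher (median −1.01). Without Col-0 replicate 3 the lower count was 5. EPFL9, the peptide stomagen that promotes stomata, had 3.59, 1.20 and 2.11 CPM in TPR1-GFP libraries, against 10.4, 13.5 and 15.6 CPM in Col-0 libraries (log2 change −2.53, SE 0.40, adjusted p = 0.000356). TMM, a receptor of the stomatal lineage, had 3.05, 1.23 and 1.75 CPM in TPR1-GFP libraries, against 4.0004, 7.75 and 14.3 CPM in Col-0 libraries (log2 change −2.13, SE 0.59, adjusted p = 0.00997), and its change was −1.56 with adjusted p = 0.0519 without Col-0 replicate 3. Wax and cutin genes, which build the cuticle, had 14 of 33 lower and 3 higher (median −0.45). CYP86A2, an oxidase of cutin monomers, had 79.1, 69.7 and 74.2 CPM in TPR1-GFP libraries, against 178, 224 and 245 CPM in Col-0 libraries (log2 change −1.54, SE 0.12, adjusted p = 6.05e-06), and GPAT8, an acyltransferase of cutin, fell by 1.43 log2 units (SE 0.23). LACS3, annotated as a synthetase and ligase that uses AMP, rose by 1.40 log2 units. Markers of epidermis, guard cells and trichomes moved the same way: 8 of 10 were lower and none higher, with a median log2 change of −0.79. Their summed level was 366 to 444 CPM in TPR1-GFP and 553 to 795 CPM in Col-0, no marker was at 0, and their part in the results on stomata and cuticle was not tested. Of the phloem and xylem markers 2 of 10 were lower, or 4 without Col-0 replicate 2, and 1 was higher.

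Genes of protein folding in the endoplasmic reticulum were mostly higher. Of 25 genes for protein disulfide isomerases and chaperones of that compartment 17 were higher and 3 lower (median 1.27). PDIL2-2, a disulfide isomerase, had 47.8, 71.8 and 69.99 CPM in TPR1-GFP libraries, against 24.002, 7.95 and 11.3 CPM in Col-0 libraries (log2 change 2.14, SE 0.35, adjusted p = 0.000432). CRT3, a calreticulin that retains and folds surface receptors, had 521, 673 and 766 CPM in TPR1-GFP libraries, against 251, 116 and 100.8 CPM in Col-0 libraries (log2 change 2.07, SE 0.29, adjusted p = 0.000166). In both, Col-0 replicate 1 was the highest Col-0 library and the groups did not overlap. ATERDJ3A, a co-chaperone, rose by 2.40 log2 units, or by 3.16 without Col-0 replicate 1. UGGT, the sensor that tags misfolded glycoproteins for another round of folding, rose by 0.70 log2 units (SE 0.16). The other steps of the secretory route changed less. The translocon and signal peptidase had 6 of 15 genes higher and 2 lower (median 0.37), N-glycan assembly had 3 of 15 higher or 6 without TPR1-GFP replicate 1 (median 0.15), and vesicle coats had 4 of 20 higher, or 1 without TPR1-GFP replicate 2 and 2 without TPR1-GFP replicate 3, Col-0 replicate 1 or Col-0 replicate 3. With upper-quartile scaling the coats had 2 higher and 6 lower and their median of 0.03 was −0.05, and N-glycan assembly had 3 each way.

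At the plasma membrane, 9 of 19 genes for SNAREs and exocyst subunits were higher and 2 lower (median 0.24). The syntaxin gene SYP122 had 117, 169 and 200.3 CPM in TPR1-GFP libraries, against 43.7, 36.2 and 24.6 CPM in Col-0 libraries (log2 change 2.22, SE 0.28, adjusted p = 7.56e-05). Its partner SNAP33 had 115, 144 and 157 CPM in TPR1-GFP libraries, against 73.7, 55.2 and 54.6 CPM in Col-0 libraries (log2 change 1.18, SE 0.14, adjusted p = 3.99e-05), and EXO70E2 of the exocyst, which tethers vesicles, rose by 1.83 log2 units (SE 0.19). SYP111, the syntaxin of the forming cell plate, fell, with 1.55, 1.58 and 0.916 CPM in TPR1-GFP libraries, against 5.10, 4.27 and 8.36 CPM in Col-0 libraries (log2 change −2.12, SE 0.42, adjusted p = 0.00126). The syntaxins of secretion and of cytokinesis were thus called in opposite directions.

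Protein turnover rose in parts. U-box ubiquitin ligases had 16 of 29 higher and 5 lower (median 0.40). PUB54 had 65.01, 78.5 and 116 CPM in TPR1-GFP libraries, against 5.20, 1.49 and 1.17 CPM in Col-0 libraries (log2 change 5.07, SE 0.48, adjusted p = 1.7e-05), and its change was 6.03 without Col-0 replicate 1. PUB24, which restrains pattern-triggered immunity, rose by 1.96 log2 units (SE 0.31). Of 12 autophagy genes 6 were higher and none lower (median 0.33), a count that ran from 2 without Col-0 replicate 1 or TPR1-GFP replicate 3 through 3 without Col-0 replicate 3 to 10 without TPR1-GFP replicate 1. ATG8E, a tag of the autophagosome, had 44.7, 41.7 and 57.5 CPM in TPR1-GFP libraries, against 23.1, 38.5 and 24.04 CPM in Col-0 libraries (log2 change 0.75, SE 0.21, adjusted p = 0.0106). Of 42 proteasome genes 10 were higher and 2 lower, at 23.8% and 4.76% close to or below the background, and the higher count was 5 without TPR1-GFP replicate 2 and 6 without TPR1-GFP replicate 3 or Col-0 replicate 2. With upper-quartile scaling the order turned to 6 higher and 7 lower. PA200, a proteasome activator, rose by 1.05 log2 units (SE 0.18). Subtilases, secreted proteases, had 5 of 26 higher and 11 lower, and their median of −0.24 was 0.02 without scaling beyond the library total.

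Transport was higher in most of the families examined. The nitrate and peptide transporters had 7 of 13 higher and 2 lower (median 1.29), and genes of iron and metal supply had 13 of 23 higher and 1 lower (median 0.69). PTR3, a peptide transporter, had 38.3, 59.5 and 60.4 CPM in TPR1-GFP libraries, against 2.50, 2.24 and 1.17 CPM in Col-0 libraries (log2 change 4.76, SE 0.32, adjusted p = 2.86e-06), without overlap of the groups, as for 31.1% of all genes tested on the higher side. WR3, a component of high-affinity nitrate uptake, had 49.6, 72.0 and 51.6 CPM in TPR1-GFP libraries, against 10.5, 4.03 and 6.87 CPM in Col-0 libraries (log2 change 3.02, SE 0.32, adjusted p = 2.78e-05). The zinc transporter gene ZIP5 had 29.5, 40.02 and 29.7 CPM in TPR1-GFP libraries, against 3.90, 3.88 and 1.82 CPM in Col-0 libraries (log2 change 3.39, SE 0.41, adjusted p = 6.28e-05). For these 3 genes the lowest TPR1-GFP library was above the highest Col-0 library. NAS3, which makes the metal chelator nicotianamine, rose by 5.20 log2 units, or 5.95 without Col-0 replicate 1. COPT2, a copper importer, rose by 4.34, or 4.96 without that library.

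Phosphate supply had 9 of 16 genes higher and 3 lower (median 0.53). PHT1;4, a phosphate importer that plants induce under shortage, had 5.28, 6.65 and 5.18 CPM in TPR1-GFP libraries, against 1.15, 0.298 and 0.808 CPM in Col-0 libraries (log2 change 2.91, SE 0.43, adjusted p = 0.000203). PAP17, an acid phosphatase, had 31.3, 51.7 and 48.4 CPM in TPR1-GFP libraries, against 16.001, 11.6 and 8.08 CPM in Col-0 libraries (log2 change 1.89, SE 0.33, adjusted p = 0.000674), and SPX1, a phosphate sensor, had 26.4, 22.4 and 23.1 CPM in TPR1-GFP libraries, against 15.1, 11.7 and 8.41 CPM in Col-0 libraries (log2 change 1.04, SE 0.24, adjusted p = 0.00358). PHO1, which loads phosphate into the xylem, fell by 1.17 log2 units (SE 0.17). The 3 genes that rose and the single gene that fell each had groups that did not overlap. The same held for 31.1% of all genes tested on the higher side and 30% on the lower. Sulphur assimilation had 5 of 18 genes higher and 3 lower, or 27.8% and 16.7%, so that the first share was near the background and the second below it. The higher count was 3 without Col-0 replicate 3, and the lower count was 1 without Col-0 replicate 1 and 5 without Col-0 replicate 2.

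Sugar transporters and invertases had 11 of 24 genes higher and 4 lower (median 0.18). SWEET11, which exports sucrose from leaf cells to the phloem, had 169, 199 and 142 CPM in TPR1-GFP libraries, against 45.4, 20.8 and 16.7 CPM in Col-0 libraries (log2 change 2.62, SE 0.38, adjusted p = 0.000193). STP13, which takes hexoses up at the cell surface, had 108, 167 and 151 CPM in TPR1-GFP libraries, against 63.7, 45.8 and 27.03 CPM in Col-0 libraries (log2 change 1.64, SE 0.34, adjusted p = 0.00199). CWINV6, annotated as a fructan exohydrolase, rose by 6.30 log2 units, a value that was 7.45 without Col-0 replicate 1 and 5.70 without Col-0 replicate 3. TMT1, which stores sugar in the vacuole, fell by 0.79 log2 units (SE 0.11). The exporter SWEET11 and the importer STP13 were thus both called higher. The sugar transporter gene STP1, also in the list, was not called (log2 change 0.15, SE 0.30). It had 146, 144 and 178 CPM in TPR1-GFP libraries, against 87.7, 228 and 105 CPM in Col-0 libraries.

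Of 75 amino acid transporter genes 32 were higher and 11 lower (median 0.33), and the lower count was 7 without TPR1-GFP replicate 3. AAT1 had 21.02, 33.1 and 41.9 CPM in TPR1-GFP libraries, against 1.3001, 0.696 and 1.86 CPM in Col-0 libraries (log2 change 4.61, SE 0.33, adjusted p = 3.42e-06), and CAT5, a cationic amino acid transporter, had 9.77, 14.2 and 17.4 CPM in TPR1-GFP libraries, against 1.15, 0.745 and 0.687 CPM in Col-0 libraries (log2 change 4.004, SE 0.27, adjusted p = 2.35e-06). MATE efflux genes had 19 of 36 higher and 9 lower (median 0.84), and ABC transporters had 33 of 59 higher and 10 lower (median 0.46). The ABC transporter-related gene AT3G21080 had 20.5, 24.1 and 38.4 CPM in TPR1-GFP libraries, against 0.350, 0.248 and 0.202 CPM in Col-0 libraries (log2 change 6.69, SE 0.35, adjusted p = 5.38e-07). Aquaporins, water channels, were divided, with 9 of 22 higher and 5 lower. PIP2B rose by 1.15 log2 units and PIP1C fell (log2 change −1.14), and both are plasma membrane channels.

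**Figure D4:**
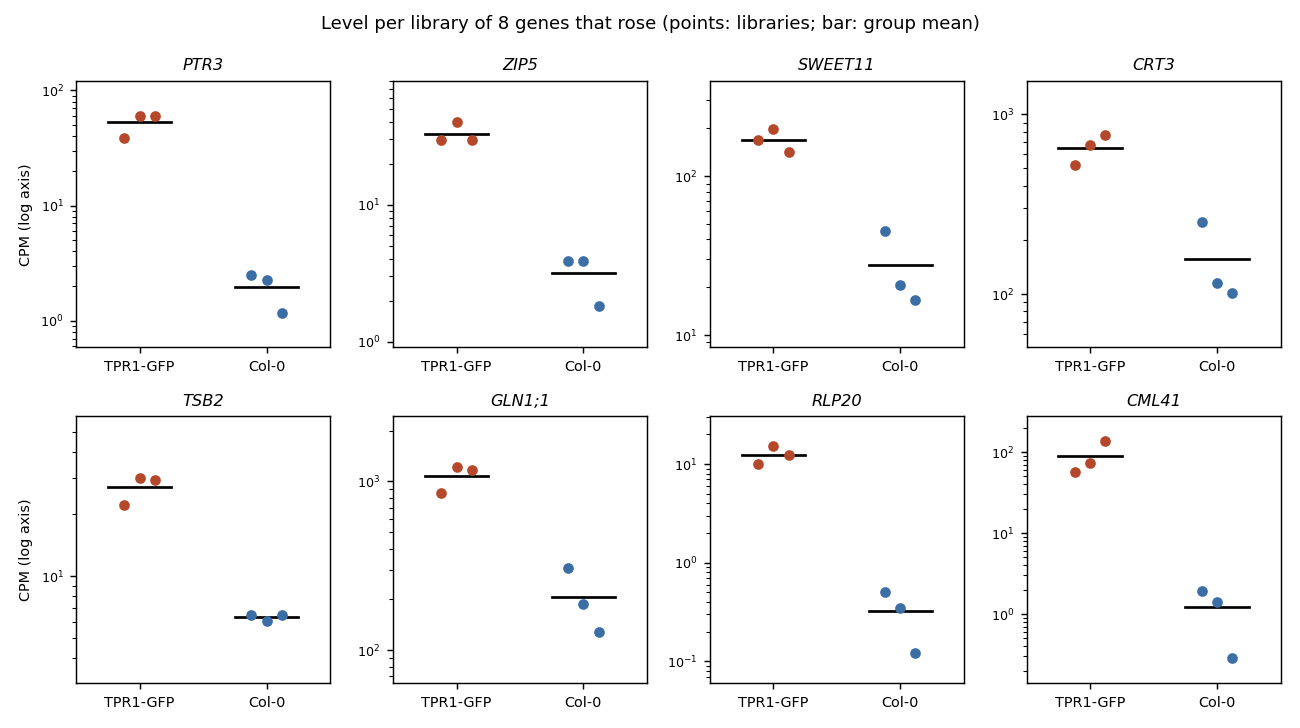
CPM of 8 genes of transport, folding, metabolism and perception in each library on log axes, with TPR1-GFP left and Col-0 right, a point per library and a bar at the group mean. For PTR3, ZIP5, SWEET11, CRT3, TSB2, GLN1;1, RLP20 and CML41 every TPR1-GFP point lies above every Col-0 point.

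Redox genes split. Of 10 genes of mitochondrial bypass and stress 7 were higher and 2 lower (median 0.78). AOX1A, the alternative oxidase that lets electrons bypass the proton-pumping chain, had 64.0, 75.3 and 79.03 CPM in TPR1-GFP libraries, against 53.8, 41.1 and 36.9 CPM in Col-0 libraries (log2 change 0.73, SE 0.15, adjusted p = 0.00169). NDB2, an external NAD(P)H dehydrogenase of the same bypass, had 35.04, 51.4 and 48.8 CPM in TPR1-GFP libraries, against 23.6, 9.24 and 11.4 CPM in Col-0 libraries (log2 change 1.62, SE 0.29, adjusted p = 0.00074), and NDA1, an internal dehydrogenase, had 59.9, 51.1 and 51.7 CPM in TPR1-GFP libraries, against 95.01, 92.7 and 96.4 CPM in Col-0 libraries and was lower (log2 change −0.80, SE 0.09, adjusted p = 3.13e-05). Of 25 genes for NADPH oxidases and the ascorbate cycle 9 were higher and 11 lower, and the higher count was 5 without TPR1-GFP replicate 2. Without scaling beyond the library total the order turned to 13 higher and 9 lower. RBOHD and RBOHF, the oxidases that make superoxide outside the cell, rose by 0.90 log2 units (SE 0.20) and by 0.94 log2 units (SE 0.17). TAPX, the thylakoid ascorbate peroxidase, had 73.1, 55.5 and 61.4 CPM in TPR1-GFP libraries, against 191, 176 and 232 CPM in Col-0 libraries (log2 change −1.66, SE 0.13, adjusted p = 4.12e-06), and CSD2, the superoxide dismutase of plastids, had 237, 173 and 168 CPM in TPR1-GFP libraries, against 397, 582 and 1090.2 CPM in Col-0 libraries (log2 change −1.84, SE 0.46, adjusted p = 0.00611). MDAR3, a monodehydroascorbate reductase, rose by 5.50 log2 units, or 6.70 without Col-0 replicate 1. Of the genes named here TAPX and CSD2 of plastids thus fell, and the oxidases RBOHD and RBOHF rose. The list was not sorted by compartment.

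Class III peroxidases, which act on walls and at the surface, had 15 of 29 genes higher and 5 lower (median 1.61). AT4G37520 had 15.9, 23.8 and 14.4 CPM in TPR1-GFP libraries, against 2.70, 1.59 and 0.929 CPM in Col-0 libraries (log2 change 3.40, SE 0.36, adjusted p = 2.64e-05), and AT1G71695 had 62.7, 53.7 and 56.7 CPM in TPR1-GFP libraries, against 120.5, 191 and 175 CPM in Col-0 libraries (log2 change −1.49, SE 0.15, adjusted p = 1.64e-05). Glutathione S-transferases had 18 of 44 higher and 9 lower, or 5 lower without Col-0 replicate 3 (median 0.18). Cytochrome P450 enzymes had 50 of 107 higher and 19 lower (median 0.32). UDP-glycosyltransferases had 28 of 91 higher and 23 lower (median 0.11), at 30.8% and 25.3% near the background. GRXS13, a glutaredoxin, had 21.7, 43.7 and 44.0 CPM in TPR1-GFP libraries, against 3.0003, 2.53 and 0.727 CPM in Col-0 libraries (log2 change 4.16, SE 0.43, adjusted p = 2.64e-05), within a family of 20 genes of which 8 were higher and 6 lower. GSTU13 fell, with 32.5, 32.6 and 32.8 CPM in TPR1-GFP libraries, against 64.2, 75.98 and 94.2 CPM in Col-0 libraries (log2 change −1.26, SE 0.12, adjusted p = 1.19e-05).

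Specialised metabolism changed in separate blocks. Berberine-bridge oxidases, FAD enzymes of which some oxidise cell wall oligosaccharides, had 12 of 17 genes higher and 2 lower (median 1.56). AT5G44390 had 16.5, 15.6 and 15.2 CPM in TPR1-GFP libraries, against 4.50, 2.83 and 1.66 CPM in Col-0 libraries (log2 change 2.41, SE 0.26, adjusted p = 3.17e-05), and AT4G20860 had 7.94, 11.8 and 10.99 CPM in TPR1-GFP libraries, against 2.15, 1.64 and 2.91 CPM in Col-0 libraries (log2 change 2.18, SE 0.31, adjusted p = 0.000165). Genes of the shikimate and tryptophan pathway had 12 of 23 higher and 4 lower (median 0.35). TSB2, a beta subunit of tryptophan synthase, had 22.1, 29.8 and 29.3 CPM in TPR1-GFP libraries, against 6.45, 6.06 and 6.51 CPM in Col-0 libraries (log2 change 2.09, SE 0.13, adjusted p = 1.71e-06), and ASA1, the entry enzyme to tryptophan, had 86.6, 106.2 and 114 CPM in TPR1-GFP libraries, against 61.5, 63.7 and 63.0 CPM in Col-0 libraries (log2 change 0.71, SE 0.10, adjusted p = 0.000196). ADT5, which leads to phenylalanine, rose by 1.37 log2 units (SE 0.20).

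Genes for the breakdown of glucosinolates, the precursors of mustard oils, were called in both directions in equal number, while their summed level was lower. It was 3547 to 4351 CPM in TPR1-GFP and 8418 to 12529 CPM in Col-0. Of 17 genes 5 were higher and 5 lower, and the higher count was 3 without TPR1-GFP replicate 3, Col-0 replicate 1 or Col-0 replicate 3, each in turn. The even split became 7 higher and 5 lower with the library total alone and 5 higher and 6 lower with DESeq2. ESM1, which steers breakdown toward isothiocyanates, had 164, 121.2 and 112 CPM in TPR1-GFP libraries, against 3114, 2806 and 2760.2 CPM in Col-0 libraries (log2 change −4.45, SE 0.23, adjusted p = 4.68e-07). The myrosinases TGG1 and TGG2, which start the breakdown, had 1865, 1507 and 1913 CPM in TPR1-GFP libraries, against 2735, 3750.0 and 5088 CPM in Col-0 libraries for TGG1, and 678, 370.2 and 725 CPM in TPR1-GFP libraries, against 1089, 2045 and 2869 CPM in Col-0 libraries for TGG2. Both fell (log2 change −1.13, SE 0.22, adjusted p = 0.00113 for TGG1; log2 change −1.76, SE 0.36, adjusted p = 0.00169 for TGG2). MBP1, a myrosinase-binding protein, had 0.216, 0.430 and 0.518 CPM in TPR1-GFP libraries, against 87.6, 507 and 121.6 CPM in Col-0 libraries and fell furthest (log2 change −9.25, SE 0.91, adjusted p = 2.04e-05), with a change of −8.06 without Col-0 replicate 2. NIT2, a nitrilase, rose in the same list with 4.31, 20.9 and 7.21 CPM in TPR1-GFP libraries, against 0, 0.298 and 0.0404 CPM in Col-0 libraries (log2 change 6.58, SE 0.82, adjusted p = 7.72e-05). Its change was 5.66 without TPR1-GFP replicate 2 and 8.64 without Col-0 replicate 2, and its level in Col-0 rests on 7 counts in all. JAL23, a jacalin-related lectin, rose by 1.53 log2 units (SE 0.31). The aliphatic synthesis list had 7 of 25 higher and 4 lower, near the background for the first. GTR2, which moves glucosinolates between cells, had 108, 151 and 120.4 CPM in TPR1-GFP libraries, against 40.9, 26.4 and 25.6 CPM in Col-0 libraries (log2 change 2.03, SE 0.21, adjusted p = 2.17e-05), and CYP79F2, an early oxidase of synthesis, rose by 2.104 log2 units (SE 0.29). The flavonoid pathway had 4 of 18 genes lower and 1 higher. TT4, chalcone synthase at its entry, had a log2 change of −4.03, which was −5.08 without TPR1-GFP replicate 1 and −3.36 without Col-0 replicate 3.

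Cold and dehydration genes were lower in TPR1-GFP. Of 26 genes 3 were higher and 17 lower, with a median log2 change of −1.33. COR15A (AT2G42540), which protects plastid membranes during freezing, had 27.1, 15.7 and 17.04 CPM in TPR1-GFP libraries, against 510.5, 656 and 769.7 CPM in Col-0 libraries (log2 change −5.02, SE 0.24, adjusted p = 3.19e-07). COR78 (AT5G52310), a further target of the CBF factors, had 24.3, 25.3 and 25.002 CPM in TPR1-GFP libraries, against 522, 719 and 497 CPM in Col-0 libraries (log2 change −4.54, SE 0.36, adjusted p = 6.27e-06). All TPR1-GFP libraries lay far below all Col-0 libraries for both genes. Their promoters are shown because both carry copies of CCGAC, the core of the element that CBF factors bind in cold and dehydration. Each run is the 300 bases before the gene start in RefSeq TAIR10.1, with CCGAC of either strand in capitals. COR15A lies at chr2:17712331-17712630 on the minus strand and COR78 at chr5:21240417-21240716 on the plus strand.

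COR15A: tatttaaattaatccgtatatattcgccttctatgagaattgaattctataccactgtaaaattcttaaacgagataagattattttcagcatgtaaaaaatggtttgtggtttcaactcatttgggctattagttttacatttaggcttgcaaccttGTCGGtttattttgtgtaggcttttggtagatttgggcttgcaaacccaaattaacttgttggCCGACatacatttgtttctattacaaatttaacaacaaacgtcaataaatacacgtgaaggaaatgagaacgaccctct
COR78: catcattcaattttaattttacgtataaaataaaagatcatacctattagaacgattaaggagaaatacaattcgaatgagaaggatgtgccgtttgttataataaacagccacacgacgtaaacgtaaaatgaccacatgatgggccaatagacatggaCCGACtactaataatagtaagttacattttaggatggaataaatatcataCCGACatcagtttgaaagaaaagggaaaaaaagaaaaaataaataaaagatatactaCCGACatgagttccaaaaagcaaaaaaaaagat

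COR15A held 2 copies, at 79 and 142 bases before the start, and COR78 held 3, at 33, 90 and 140 bases. CCGAC occurred in 15.1% of all 18769 windows and in 7 of the 17 windows of list members called lower (41.18%), against 10 of the 26 windows of the whole list (38.46%) and 1 of the 3 of members called higher. The letters ACGTG, the core of the G-box and of the abscisic acid element, occurred in 25.87% of all windows, in 9 of those 17 (52.94%), in 16 of the 26 (61.54%) and in all 3 of the members called higher.

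DREB1A, which encodes the factor CBF3 that binds CCGAC, had 1.65, 1.003 and 2.03 CPM in TPR1-GFP libraries, against 14.7, 18.7 and 14.95 CPM in Col-0 libraries (log2 change −3.38, SE 0.34, adjusted p = 2.04e-05). CBF2 of the same family had 0.683, 1.32 and 1.71 CPM in TPR1-GFP libraries, against 6.30, 10.9 and 5.41 CPM in Col-0 libraries (log2 change −2.61, SE 0.40, adjusted p = 0.00025). KIN1, a small cold-induced protein, fell by 3.82 log2 units (SE 0.31), and GOLS3, which makes galactinol in the cold, had 1.72, 1.75 and 1.59 CPM in TPR1-GFP libraries, against 27.7, 21.96 and 17.2 CPM in Col-0 libraries (log2 change −3.71, SE 0.47, adjusted p = 8.33e-05). The regulators and the protective genes named here had no overlapping groups. They were marked in the list or picked for the largest falls, so that they moved alike is in part set by that choice. Of the 26 genes 6 were not called. RD20, a caleosin of dehydration, rose with 51.9, 78.8 and 60.8 CPM in TPR1-GFP libraries, against 22.6, 29.8 and 27.03 CPM in Col-0 libraries (log2 change 1.27, SE 0.23, adjusted p = 0.000748). Dehydrins and late embryogenesis abundant proteins had 18 of 40 higher and 8 lower (median 0.24). LTI30, a dehydrin, fell by 2.93 log2 units (SE 0.23), whereas AT1G65690, annotated as a hydroxyproline-rich relative, had 15.1, 29.02 and 33.9 CPM in TPR1-GFP libraries, against 3.10, 1.29 and 2.303 CPM in Col-0 libraries (log2 change 3.54, SE 0.32, adjusted p = 1.26e-05).

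Abscisic acid genes had 11 of 35 higher and 8 lower (median 0.23), and the lower count was 5 without Col-0 replicate 2. At 31.4% and 22.9% these shares were near the background. The receptor gene PYL4 had 46.8, 41.3 and 45.98 CPM in TPR1-GFP libraries, against 15.9, 10.7 and 9.42 CPM in Col-0 libraries (log2 change 1.90, SE 0.19, adjusted p = 1.81e-05). CYP707A2, which degrades the hormone, rose by 2.56 log2 units (SE 0.34). Its relative CYP707A3 fell by 1.47 log2 units (SE 0.37), with overlapping groups. NCED3, annotated as a dioxygenase, was called lower (log2 change −1.55, SE 0.46), and its change without single libraries is not given here. Heat shock genes had 20 of 61 higher and 13 lower, with a median of 0.06 that was −0.02 with upper-quartile scaling. Hsp70-2 rose by 3.95 log2 units, or 4.72 without Col-0 replicate 1.

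Genes of carbon and nitrogen metabolism were called in both directions. Starch genes had 20 of 38 lower and 10 higher (median −0.33), and without scaling beyond the library total 14 each way. APL1, the main large subunit of the enzyme that makes ADP-glucose for starch in leaves, had 214, 185 and 199 CPM in TPR1-GFP libraries, against 419, 369 and 430.5 CPM in Col-0 libraries (log2 change −1.03, SE 0.09, adjusted p = 9.82e-06). APL3, a large subunit known from sink tissue, had 68.5, 80.4 and 77.8 CPM in TPR1-GFP libraries, against 32.8, 27.5 and 26.6 CPM in Col-0 libraries (log2 change 1.38, SE 0.16, adjusted p = 4.86e-05). The starch synthase gene SS1 and the debranching enzyme gene LDA had log2 changes of −0.998 and −1.03. AMY1, an alpha-amylase that acts outside the plastid, rose by 4.90, or 5.63 without Col-0 replicate 1.

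Cytosolic glutamine synthetase stood out among 22 nitrogen assimilation genes, of which 7 were higher and 5 lower. GLN1;1 had 852, 1214 and 1171 CPM in TPR1-GFP libraries, against 307, 189 and 128 CPM in Col-0 libraries (log2 change 2.37, SE 0.29, adjusted p = 6.63e-05), and GLN1;4 had 47.8, 47.4 and 53.9 CPM in TPR1-GFP libraries, against 11.1, 8.50 and 8.12 CPM in Col-0 libraries (log2 change 2.43, SE 0.20, adjusted p = 6.19e-06). Both isoforms are known to recycle ammonium, and in both the groups were apart. P5CS1, which makes proline under drought, had 161, 185 and 149 CPM in TPR1-GFP libraries, against 333, 394 and 384 CPM in Col-0 libraries and fell (log2 change −1.17, SE 0.12, adjusted p = 2.21e-05). The tricarboxylic acid cycle and respiratory chain had 17 of 62 genes higher and 12 lower, or 7 lower without TPR1-GFP replicate 3 (median 0.09). The first share, 27.4%, was near the background and the second, 19.4%, below it. With upper-quartile scaling the order turned to 13 higher and 17 lower. CSY3, a citrate synthase known from peroxisomes, rose by 0.92 log2 units (SE 0.21), and IDH2, a subunit of isocitrate dehydrogenase, by 0.91 log2 units (SE 0.14).

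Receptors at the surface and inside the cell were higher in most families. Of 81 TIR-NBS-LRR genes 70 were higher and 2 lower (median 1.15), and of 39 CC-NBS and NB-ARC genes 29 were higher and 1 lower (median 0.51). Receptor-like proteins, which perceive ligands without a kinase of their own, had 35 of 45 higher and 4 lower (median 1.87). Lectin receptor kinases had 32 of 52 higher and 8 lower, or 5 lower without Col-0 replicate 3 (median 0.66), and wall-associated kinases 10 of 11 higher and none lower (median 1.14). Leucine-rich repeat receptor kinases had 37 of 131 higher and 51 lower. When only the library total was used, this order turned to 48 higher and 35 lower, and the median of −0.18 to 0.07.

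RLP20 (AT2G25440) had 9.95, 15.2 and 12.3 CPM in TPR1-GFP libraries, against 0.50004, 0.348 and 0.121 CPM in Col-0 libraries (log2 change 5.30, SE 0.34, adjusted p = 1.6e-06). RLP28 had 5.86, 10.11 and 9.08 CPM in TPR1-GFP libraries, against 0.450, 0.447 and 0.0404 CPM in Col-0 libraries (log2 change 4.79, SE 0.47, adjusted p = 1.65e-05), and RLP33 had 7.47, 10.2 and 8.20 CPM in TPR1-GFP libraries, against 26.5, 21.96 and 18.7 CPM in Col-0 libraries and fell (log2 change −1.37, SE 0.25, adjusted p = 0.000801). RLP7 (AT1G47890) rose by 4.87 log2 units, or 6.55 without Col-0 replicate 1 and 4.21 without Col-0 replicate 3. The promoters of RLP20 and RLP7 are shown because the list is rich in TTGAC, the core of the W-box that WRKY factors bind. The runs are the 300 bases before the gene start in RefSeq TAIR10.1, at chr2:10826435-10826734 and chr1:17643676-17643975, both on the plus strand, with TTGAC of either strand in capitals.

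RLP20: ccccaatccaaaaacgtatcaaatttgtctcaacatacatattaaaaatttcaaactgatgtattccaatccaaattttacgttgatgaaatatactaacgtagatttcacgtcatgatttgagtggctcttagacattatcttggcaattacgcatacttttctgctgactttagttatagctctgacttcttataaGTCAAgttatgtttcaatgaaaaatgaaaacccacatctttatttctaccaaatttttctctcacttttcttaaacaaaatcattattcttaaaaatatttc
RLP7: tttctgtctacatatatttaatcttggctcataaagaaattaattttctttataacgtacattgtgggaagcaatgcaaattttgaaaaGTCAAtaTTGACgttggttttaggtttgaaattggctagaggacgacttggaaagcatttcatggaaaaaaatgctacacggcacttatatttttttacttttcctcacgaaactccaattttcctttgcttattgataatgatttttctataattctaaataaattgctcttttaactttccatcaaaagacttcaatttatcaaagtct

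RLP20 held 1 copy and RLP7 held 2, at 204 and 211 bases before the start. TTGAC occurred in 50.01% of all 18769 windows, in 57.04% of those of genes called higher and in 45.19% of those of genes called lower. It occurred in 30 of 35 windows of receptor-like proteins called higher (85.71%), in 25 of 32 of lectin receptor kinases called higher (78.12%) and in 12 of 12 of berberine-bridge oxidases called higher. Over the whole of these lists, whatever the call, the shares were 82.22%, 73.08% and 82.35%, and among members called lower TTGAC occurred in 3 of 4, 6 of 8 and 0 of 2 windows. TIR-NBS-LRR genes called higher held it in 38 of 70 windows (54.29%), below the share of all genes called higher. Members of these families often lie next to each other and share sequence, so their windows are not independent.

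The S-locus type kinase gene AT1G67520 had 8.30, 15.2 and 14.7 CPM in TPR1-GFP libraries, against 1.55, 0.944 and 1.13 CPM in Col-0 libraries (log2 change 3.39, SE 0.30, adjusted p = 9.01e-06). AT3G04220 of the TIR-NBS-LRR class had 6.001, 9.05 and 9.28 CPM in TPR1-GFP libraries, against 1.35, 0.596 and 0.647 CPM in Col-0 libraries (log2 change 3.24, SE 0.29, adjusted p = 8.88e-06), and AT4G19530 of the same class had 60.9, 43.4 and 47.9 CPM in TPR1-GFP libraries, against 123, 139 and 125 CPM in Col-0 libraries and was lower (log2 change −1.34, SE 0.15, adjusted p = 3.79e-05). In all 3 the groups did not overlap, as for 31.1% of all genes tested on the higher side and 30% on the lower. AT1G50180, of the NB-ARC class, rose by 2.91 log2 units (SE 0.20). Clustered receptor genes with near-identical copies can exchange reads, so single members are less certain than the counts. WAK3, a kinase anchored in the wall, rose by 3.74 log2 units, or 5.26 without Col-0 replicate 1.

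Calcium genes were mostly higher as well. Calmodulin-like proteins had 26 of 49 higher and 4 lower (median 0.39), calcium-dependent protein kinases 16 of 28 higher and 2 lower (median 0.39), and glutamate receptors with cyclic nucleotide channels 21 of 29 higher and 4 lower (median 0.59). CML41, a calcium sensor at plasmodesmata, had 56.0, 74.2 and 138 CPM in TPR1-GFP libraries, against 1.95, 1.39 and 0.283 CPM in Col-0 libraries (log2 change 6.25, SE 0.54, adjusted p = 9.72e-06). CPK29 had 55.6, 75.03 and 75.5 CPM in TPR1-GFP libraries, against 23.1, 10.3 and 15.3 CPM in Col-0 libraries (log2 change 2.08, SE 0.24, adjusted p = 4.7e-05). GLR2.8 had 13.5, 19.3 and 23.4 CPM in TPR1-GFP libraries, against 2.15, 0.994 and 1.13 CPM in Col-0 libraries (log2 change 3.73, SE 0.29, adjusted p = 4.53e-06). No Col-0 library reached the lowest TPR1-GFP library of these 3 genes, as for 31.1% of all genes tested. GLR3.6, which is known to carry wound signals from leaf to leaf, had 3.45, 3.09 and 2.03 CPM in TPR1-GFP libraries, against 6.20, 5.96 and 7.44 CPM in Col-0 libraries and fell (log2 change −1.19, SE 0.23, adjusted p = 0.00111).

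Transcription factor families differed in how they split. WRKY factors had 40 of 51 higher and 3 lower (median 1.304), and NAC factors 38 of 66 higher and 5 lower (median 0.54). WRKY41 had 3.67, 5.84 and 6.01 CPM in TPR1-GFP libraries, against 0.100, 0.0994 and 0.0808 CPM in Col-0 libraries (log2 change 5.73, SE 0.48, adjusted p = 7.08e-06), and WRKY60 had 29.9, 45.1 and 38.9 CPM in TPR1-GFP libraries, against 3.05, 2.24 and 1.29 CPM in Col-0 libraries (log2 change 4.13, SE 0.25, adjusted p = 1.25e-06). MYB factors had 20 of 67 higher and 13 lower, bHLH factors 27 of 85 higher and 25 lower, and homeodomain factors 30 of 76 higher and 25 lower. AP2 and ERF factors had 26 of 70 lower and 17 higher, and the higher count was 10 without either TPR1-GFP replicate 2 or Col-0 replicate 3. Without scaling beyond the library total this order turned to 24 higher and 17 lower. With upper-quartile scaling that of the bHLH factors turned to 24 higher and 27 lower, and the homeodomain factors were even at 26 each. MYB59 had 84.8, 118 and 112 CPM in TPR1-GFP libraries, against 15.8, 13.6 and 4.69 CPM in Col-0 libraries (log2 change 3.22, SE 0.44, adjusted p = 0.000149), and the bZIP factor gene TGA7 had 37.3, 43.8 and 49.4 CPM in TPR1-GFP libraries, against 8.15, 5.91 and 4.32 CPM in Col-0 libraries (log2 change 2.83, SE 0.34, adjusted p = 6.24e-05). TCP4, which ends cell proliferation in the leaf, had 45.1, 42.1 and 40.3 CPM in TPR1-GFP libraries, against 65.9, 82.0 and 80.6 CPM in Col-0 libraries and fell (log2 change −0.84, SE 0.14, adjusted p = 0.000399).

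Chromatin and small RNA genes were called at shares near or below the background. Of 24 genes for histone deacetylases and partners of corepressors 5 were higher and 3 lower, with a median of 0.01, which is 20.8% and 12.5% against backgrounds of 27.5% and 26.4%. The median was −0.07 with upper-quartile scaling. HDA18 had 9.81, 9.45 and 9.36 CPM in TPR1-GFP libraries, against 4.35, 2.78 and 3.72 CPM in Col-0 libraries (log2 change 1.40, SE 0.17, adjusted p = 5.69e-05), and HDA5 rose by 0.59 log2 units (SE 0.12). Small RNA and DNA methylation genes had 8 of 33 higher and 9 lower, and the higher count was 4 without TPR1-GFP replicate 2, TPR1-GFP replicate 3 or Col-0 replicate 3, each in turn. Their order turned to 14 higher and 8 lower when only the library total was used. MET1, which copies CG methylation after replication, had 16.7, 11.9 and 8.76 CPM in TPR1-GFP libraries, against 39.7, 44.0 and 53.6 CPM in Col-0 libraries (log2 change −1.88, SE 0.27, adjusted p = 0.000199), and DDM1, a remodeler that keeps heterochromatin methylated, had 3.99, 2.35 and 2.11 CPM in TPR1-GFP libraries, against 8.50, 10.9 and 14.4 CPM in Col-0 libraries (log2 change −2.004, SE 0.33, adjusted p = 0.000456). ROS1, a demethylase that antagonises them, fell by 0.95 log2 units (SE 0.24), and its relative DML2 rose by 1.13 log2 units (SE 0.14). AGO2, an antiviral Argonaute, rose by 0.89 log2 units (SE 0.14), and AGO4, of the DNA methylation pathway, fell by 0.87 log2 units (SE 0.14).

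Transposable element genes, 138 in the table, had 35 higher and 27 lower, with a median of −0.02, and both shares lie below the background. The order turned to 32 higher and 34 lower with upper-quartile scaling, and the median was 0.22 without scaling beyond the library total. AT3G17050 had 25.2, 28.4 and 31.8 CPM in TPR1-GFP libraries, against 5.75, 5.32 and 4.89 CPM in Col-0 libraries (log2 change 2.42, SE 0.12, adjusted p = 2.54e-07), and SADHU4-1 had 1.72, 1.32 and 1.87 CPM in TPR1-GFP libraries, against 3.65, 5.62 and 8.16 CPM in Col-0 libraries and fell (log2 change −1.84, SE 0.27, adjusted p = 0.000169). Light signalling had 10 of 36 higher, or 6 without TPR1-GFP replicate 3, and 9 lower, or 5 without TPR1-GFP replicate 2. At 27.8% and 25% both shares were near the background. With upper-quartile scaling the order turned to 6 higher and 11 lower. PIF4, a bHLH factor that promotes elongation, had 154, 145 and 154 CPM in TPR1-GFP libraries, against 220.2, 280.4 and 211 CPM in Col-0 libraries (log2 change −0.65, SE 0.13, adjusted p = 0.00121), and HYH, a relative of the light factor HY5, had 8.73, 10.4 and 8.40 CPM in TPR1-GFP libraries, against 3.20, 2.19 and 1.78 CPM in Col-0 libraries (log2 change 1.95, SE 0.26, adjusted p = 9.84e-05). Leaf polarity genes had 7 of 21 higher and 6 lower, the last count being 2 without TPR1-GFP replicate 2. The order turned to 6 higher and 8 lower with upper-quartile scaling and to 7 higher and 8 lower with DESeq2. AS1, which sets leaf shape, had 59.2, 62.3 and 62.7 CPM in TPR1-GFP libraries, against 30.1, 37.0 and 31.6 CPM in Col-0 libraries (log2 change 0.90, SE 0.09, adjusted p = 1.68e-05), and ARF4, an auxin response factor of the lower leaf side, had 80.9, 77.2 and 69.4 CPM in TPR1-GFP libraries, against 29.8, 28.8 and 24.2 CPM in Col-0 libraries (log2 change 1.46, SE 0.11, adjusted p = 3.22e-06).

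Some of the largest changes lay outside these lists. LAS1, annotated as lanosterol synthase, a rarely used branch of plant sterol synthesis, had 14.8, 19.6 and 22.4 CPM in TPR1-GFP libraries, against 0.150, 0.199 and 0.0808 CPM in Col-0 libraries (log2 change 7.03, SE 0.47, adjusted p = 6.49e-06). AT5G44260, a zinc finger gene of the CCCH type, had 0.180, 0.115 and 0.159 CPM in TPR1-GFP libraries, against 11.3, 56.8 and 18.4 CPM in Col-0 libraries and fell (log2 change −7.55, SE 0.85, adjusted p = 4.27e-05), with a change of −6.59 without Col-0 replicate 2. ADS1, a fatty acid desaturase, had 1.58, 0.573 and 0.876 CPM in TPR1-GFP libraries, against 13.001, 87.6 and 38.9 CPM in Col-0 libraries (log2 change −5.54, SE 0.86, adjusted p = 0.000319), and its change was −4.71 without that library. The TRAF-like gene AT3G28220 had 9.45, 3.52 and 6.57 CPM in TPR1-GFP libraries, against 63.2, 432 and 167 CPM in Col-0 libraries (log2 change −5.09, SE 0.66, adjusted p = 9.91e-05), or −4.16 without it. Col-0 replicate 2 was the highest library for these 3 genes. Groups without overlap were a condition for naming the largest changes over all genes, so their separation is no result.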

How the data were processed

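Polyadenylated leaf RNA was sequenced. The submitters' processing notes name TopHat2, HTSeq, limma and the TAIR10 build; versions and strand are not given in the sources used here. The authors deposited read counts per gene and library, which were tested, and log2 CPM, log2 fold changes and adjusted p-values, of which the 2 last served as an alternative. The table also has 12 columns of log2 CPM per library that were not used. The lowest sum of a gene over the table was 101 counts.

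The counts went into edgeR 4.0.16 under R 4.3.3: filterByExpr, TMM scaling, and a robust quasi-likelihood fit of all 12 libraries on genotype, adjusted after Benjamini and Hochberg over 18877 genes and called under 0.05. Each SE was back-calculated from a gene's log2 change and F statistic. The fit was also run on simulated counts in which few genes changed, which cannot speak to the scaling of these data. Of the same-number pairs of TPR1-GFP and Col-0 none correlated above 0.1 (−0.279, −0.121 and −0.223), so the main fit has no replicate block. Some pairs with different numbers did: TPR1-GFP 1 with Col-0 3 (0.341), 2 with 1 (0.280) and 3 with 2 (0.165). A pairing across numbers was not tested. No 2 libraries agreed within sampling noise.

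Members and lists were chosen with earlier results of these data known. Named genes are those marked in the lists, in each list the 3 largest changes in its more frequent direction and the largest in the other, and the 8 largest rises and falls over all genes, with at least 5 CPM in the higher group. The 8 largest rises and falls were taken only from called genes whose groups did not overlap. Lists were matched by symbol or description, and 129 symbols had no match. Promoter windows of 300 bases came from RefSeq TAIR10.1 and were found for 18769 tested genes. Alternatives were upper-quartile scaling, no scaling, no filter, the 6 libraries alone, a replicate block, each library left out, DESeq2 1.42.0 and the authors' columns.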

Additional observations from a re-analysis of the deposited data

How the results depend on the processing

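Of the 5192 genes higher and 4979 lower, other settings gave 4578 and 5776 with upper-quartile scaling, 5194 and 4978 with no filter, 4531 and 4543 with the 6 libraries alone, 5267 and 5171 with DESeq2, and 5310 and 4931 in the authors' deposited table. Without scaling beyond the library total they were 8349 and 3098, and with at least 1 log2 unit required they were 2259 and 1905. Leaving out each library in turn gave 4257 to 5241 higher and 3991 to 4962 lower. The share of calls that were higher was 51.0% with TMM, 44.2% with upper-quartile scaling, 72.9% with no scaling and 50.5% with DESeq2. With the replicate block they were 5124 and 4864, and 9802 calls were shared in the same direction with the fit without it. Since the numbers do not pair these libraries, the block is no test of pairing. Under none of the settings was a gene called in the opposite direction.

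Depth limits the low end: levels well under 1 CPM, such as the 0.0404 CPM of RLP28 in Col-0 replicate 3, rest on few counts.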
